A study of Rattus norvegicus with 14 samples.

Results

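Iron storage, iron transport and heme breakdown were followed through 8 genes, Tf, Tfrc, Fth1, Ftl1, Aco1, Hmox1, Hpx and Cp, in rat liver after feeding without vitamin A. Every probe set whose platform annotation named 1 of these genes, alone or with others, was taken, which gave 14 of the 8740 probe sets, and 8 of 5147 annotated genes, on the array besides controls. Liver RNA came from male rats aged 74 days that had eaten a vitamin A-deficient or a vitamin A-sufficient diet for 53 days, and no strain is given in the sources used here. Each diet had 7 single-channel arrays, of which 4 (livers 1 to 4) used about 10 µg of total RNA and 3 (livers 1, 2 and 4) about 2 µg. A liver here means the mean over the arrays that carry one diet and one number in their titles, which made 4 deficient and 4 sufficient livers, and for liver 3 this is a single 10 µg array. Whether same-numbered arrays of a diet truly come from one organ is not given in the sources used here. The p-values between diets therefore reflect variation among these means, which may be partly technical. Levels are log2 of the scaled intensity plus 16, on which an intensity of 0 is 4, and differences are deficient minus sufficient on that scale.

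Iron reaches the liver bound to transferrin, the plasma protein encoded by Tf, and enters cells through the transferrin receptor, Tfrc. Inside the cell it is stored in ferritin, a shell of heavy chains (Fth1), which oxidize iron, and light chains (Ftl1), which help it mineralize. Aco1 encodes a cytosolic aconitase that, when it lacks its iron-sulfur cluster, binds RNA as an iron regulatory protein and controls translation of ferritin and stability of Tfrc mRNA. Ceruloplasmin (Cp) is a copper ferroxidase of plasma, hemopexin (Hpx) carries free heme to the liver, and heme oxygenase 1 (Hmox1) opens the heme ring and releases its iron, in liver chiefly in macrophages. Vitamin A deficiency is known to accompany anemia and altered iron distribution in people and rats.

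None of the 14 probe sets passed the test between diets. In limma with Benjamini-Hochberg adjustment over all 5244 probe sets tested, 0 of 14 passed an adjusted p of 0.05, against 1.72% of all probe sets, and their adjusted p lay between 0.538 and 0.981. At an unadjusted p under 0.05, 0 of 14 passed, against 14.5% of all probe sets. The deficient and sufficient livers overlapped for all 14, whereas the groups did not overlap for 8.91% of the probe sets tested. Differences ran from -0.37 for Tfrc to 0.25 for the dimmer Hmox1 probe set, with a median of 0.04 over the members and 0.04 over all probe sets tested. Of the 14, 8 differences were positive and 6 negative, but 6 were positive and 8 negative when arrays were scaled to equal medians. In bulk liver RNA, fewer cells of a type and less RNA per cell cannot be told apart.

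**Figure D1:**
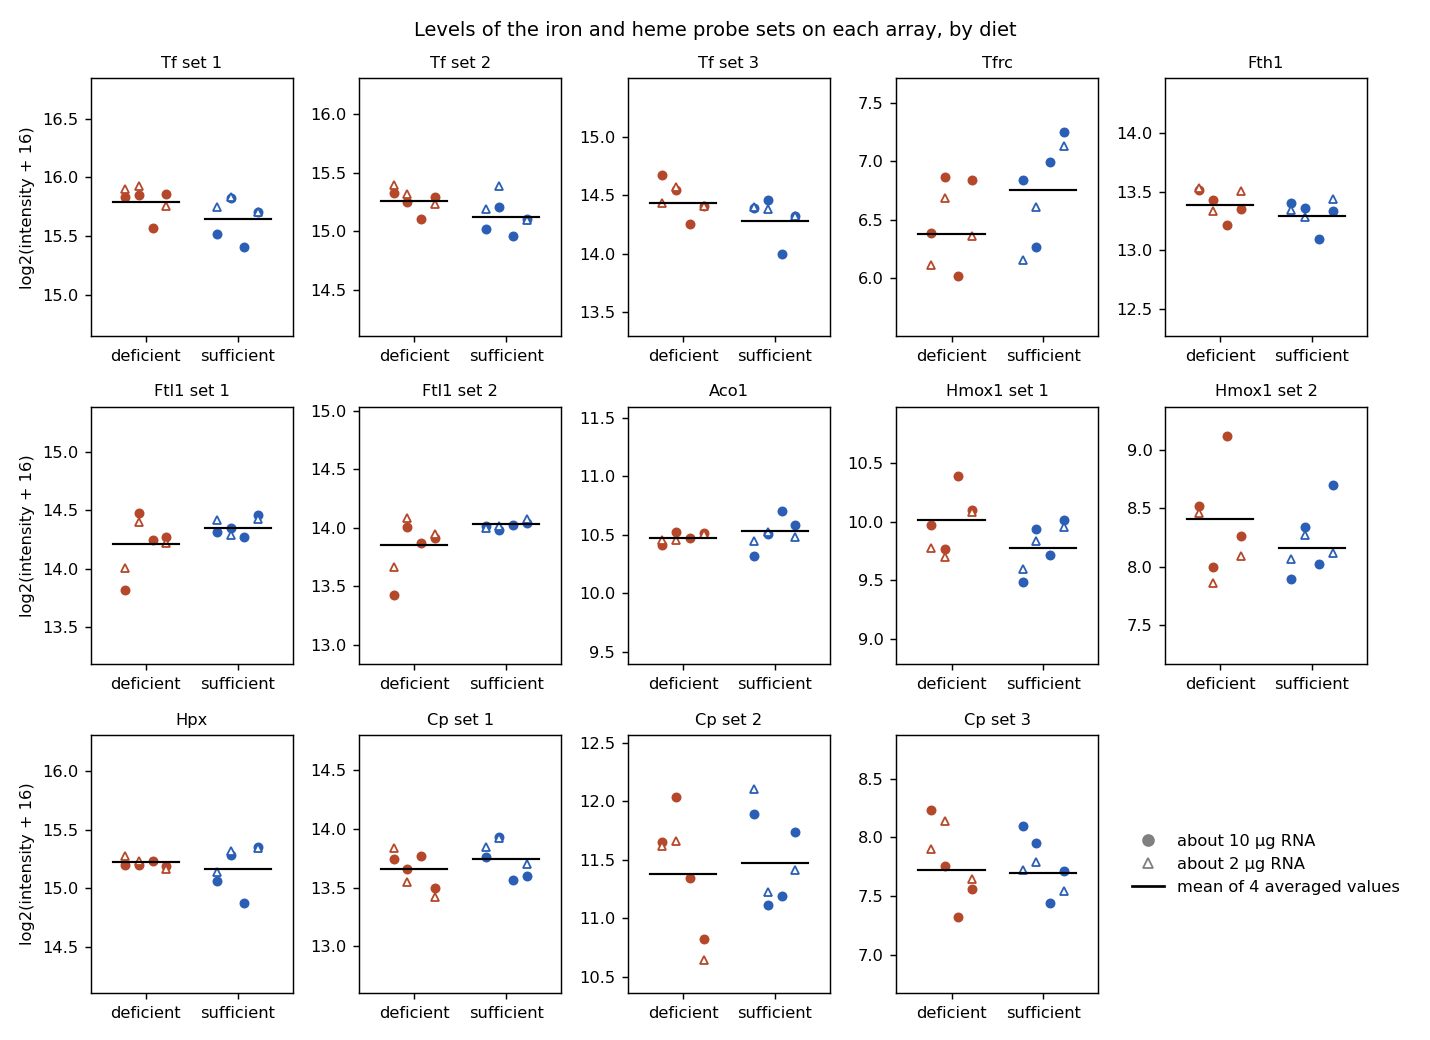
Level of each of the 14 probe sets on each array, as log2(intensity + 16), with deficient livers left of sufficient livers. Filled circles are arrays from about 10 µg of RNA, open triangles arrays from about 2 µg, and the black line is the mean of the 4 averaged values. Every panel spans the same height. The groups overlap in all 14 panels.

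Of the 14 probe sets, 8 were annotated to a member alone and 6 to several genes. The 3 Tf probe sets also named Srprb, a subunit of the signal recognition particle receptor. The Fth1 probe set also named a processed copy of that gene, Fth1-ps5, and both Ftl1 probe sets also named several Ftl1 relatives and Ripor2. The signal of these 6 may therefore hold transcripts other than the member's. Tf and Cp had 3 probe sets each, Ftl1 and Hmox1 had 2 each and the other 4 genes 1 each, numbered below from the brightest. The 2 Ftl1 probe sets are named for the same source sequence, as are Tf sets 1 and 2, so their agreement is not independent. All 14 had a mean level over the filter at 6.20. Brightness of different probe sets does not rank transcripts, so levels are compared only within a probe set.

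The annotated promoters of Tf and Hpx are shown because, of the members' promoters searched, they were the 2 that held AGGTCA, a short half-site whose repeats are bound by the nuclear receptors that answer to vitamin A derivatives. RefSeq sequence of GRCr8 was matched by symbol for 5 of the 8 members (Tf, Tfrc, Aco1, Hpx and Cp) and covers 250 bases before to 50 after the annotated start. Both sequences are on the minus strand and read 5′ to 3′ along the gene, Tf at chr8:112695327-112695626 and Hpx at chr1:169352106-169352405, and capitals mark the half-site on either strand (TGACCT on the other).
Tf: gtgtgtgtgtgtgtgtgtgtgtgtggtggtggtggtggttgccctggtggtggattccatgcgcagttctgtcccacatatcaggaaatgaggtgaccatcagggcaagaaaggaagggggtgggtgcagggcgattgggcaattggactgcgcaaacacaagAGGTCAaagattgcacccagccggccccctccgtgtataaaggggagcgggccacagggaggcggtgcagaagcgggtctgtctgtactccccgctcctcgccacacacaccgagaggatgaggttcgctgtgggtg
Hpx: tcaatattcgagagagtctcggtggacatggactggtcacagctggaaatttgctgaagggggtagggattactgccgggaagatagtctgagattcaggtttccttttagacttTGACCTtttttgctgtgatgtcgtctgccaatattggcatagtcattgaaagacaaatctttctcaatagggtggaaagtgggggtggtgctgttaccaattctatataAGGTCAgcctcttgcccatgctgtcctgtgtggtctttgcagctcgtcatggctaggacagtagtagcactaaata
Tf held 1 half-site, starting at -87 from the annotated start, and Hpx held 2, at -135 on the opposite strand and at -26. The promoters of Tfrc, Aco1 and Cp held 0 in the same window. Of 33469 RefSeq promoters of this length, 16.2% held the half-site on either strand. The letters TATAA, read on the gene's strand, started at -52 in Tf, -30 in Hpx and -27 in Cp, and 18.4% of all promoters held them. The second half-site of Hpx began within its TATAA. These matches describe letters only, and binding was not measured.

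Transferrin did not pass by any of its 3 probe sets. Tf set 1 read 15.87, 15.89, 15.59 and 15.81 in deficient livers 1 to 4, against 15.63, 15.83, 15.43 and 15.70 in sufficient livers. Liver 3 was the lowest of each diet. The difference was 0.14 (SE 0.10, 95% interval -0.08 to 0.36, limma adjusted p = 0.602), so that a fold outside 0.944 to 1.29 lay beyond the interval. Set 2 read 15.36, 15.29, 15.14 and 15.26 in deficient livers, against 15.10, 15.30, 15.00 and 15.10 in sufficient livers, and again liver 3 was the lowest of each diet. Sets 2 and 3 gave 0.14 (SE 0.09, adjusted p = 0.539) and 0.16 (SE 0.12, adjusted p = 0.614) in limma. The 3 probe sets followed each other over the 8 livers with Pearson's r of 0.862 to 0.941. Set 1 was the brightest probe set on each of the 14 arrays. Quantile normalization gives the brightest probe set the same value on every array, so the set 1 difference was 0 by construction. Sets 2 and 3 gave 0.01 and 0.03 under quantile normalization. When arrays were scaled to equal medians, sets 1 to 3 gave 0.07, 0.07 and 0.09. Without sufficient liver 3 they gave 0.07, 0.10 and 0.06.

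The transferrin receptor, whose mean level of 6.61 lay close to the filter, had the most negative difference of the members. Tfrc read 6.25, 6.77, 5.90 and 6.60 in deficient livers, against 6.50, 6.44, 6.88 and 7.19 in sufficient livers. Deficient liver 3 lay lowest and sufficient liver 4 highest, and both diets covered the range between 6.44 and 6.77. The difference was -0.37 (SE 0.25, 95% interval -0.92 to 0.18, adjusted p = 0.576 in limma), which spans a fold of 0.527 to 1.14. Its sign was negative in each of 17 alternative fits, and in none of them was it called. Arrays of the same liver at the 2 RNA amounts differed by up to 0.68 for Tfrc, more than the 2 diets did.

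Tfrc is also made by erythroid precursors, so their markers were read beside it. Of 5 tested erythroid markers, 4 fell in limma: the globins Hbb (-1.46), Hbb-b1 (-1.32) and Hba-a3 (-0.98) and the erythroid heme synthesis enzyme Alas2 (-1.23). The fifth, Slc4a1, the anion exchanger of red cells, gave -0.13 (SE 0.12, adjusted p = 0.734 in limma) with overlapping diets. The summed intensity of the 6 erythroid markers on the array was 3950 to 6727 in deficient livers and 12740 to 15801 in sufficient livers, which do not overlap. Hbb and Hbb-b1 made up 83.9% to 90.1% of that sum in deficient livers and 91.5% to 92.5% in sufficient livers, and the other 4 markers summed to 635 to 710 in deficient livers and 1085 to 1211 in sufficient livers. Epor, the erythropoietin receptor, averaged 5.59 in deficient livers and 5.22 in sufficient livers, overlapped and was too dim to be tested. The part of these cells in the Tfrc values was not tested.

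The ferritin chains did not pass. Fth1 read 13.53, 13.38, 13.22 and 13.43 in deficient livers, against 13.37, 13.32, 13.10 and 13.39 in sufficient livers, a difference of 0.09 (SE 0.10, 95% interval -0.13 to 0.32, adjusted p = 0.770 in limma). Liver 3 was again the lowest of each diet, and without sufficient liver 3 the Fth1 difference was 0.03. Ftl1 set 1 read 13.91, 14.44, 14.25 and 14.24 in deficient livers and 14.36, 14.32, 14.28 and 14.44 in sufficient livers. By set 1 deficient livers 1, 3 and 4 lay below every sufficient liver, liver 1 the furthest and livers 3 and 4 close to the sufficient range. The Ftl1 difference was -0.14 (SE 0.11, adjusted p = 0.647) by set 1 and -0.17 (SE 0.11, adjusted p = 0.538) by set 2 in limma. Without deficient liver 1 the 2 differences were -0.04 and -0.07. Ftl1 set 2 read 13.54, 14.05, 13.91 and 13.93 in deficient livers, and averaged 13.86 ± 0.22 in deficient livers and 14.03 ± 0.03 in sufficient livers (SD, n = 4 each). By set 2 as well, deficient livers 1, 3 and 4 lay below every sufficient liver. Ferritin is controlled largely at translation, which arrays do not measure.

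Aco1, the aconitase and iron regulatory protein, had the smallest spread of the members in the 8 livers. It read 10.44, 10.49, 10.47 and 10.51 in deficient livers, against 10.38, 10.51, 10.71 and 10.53 in sufficient livers. The difference was -0.06 (SE 0.11, 95% interval -0.29 to 0.18, adjusted p = 0.887 in limma), and it was 5.2e-04 without sufficient liver 3. The related regulator Ireb2 gave -0.10 (SE 0.18, adjusted p = 0.877).

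**Figure D2:**
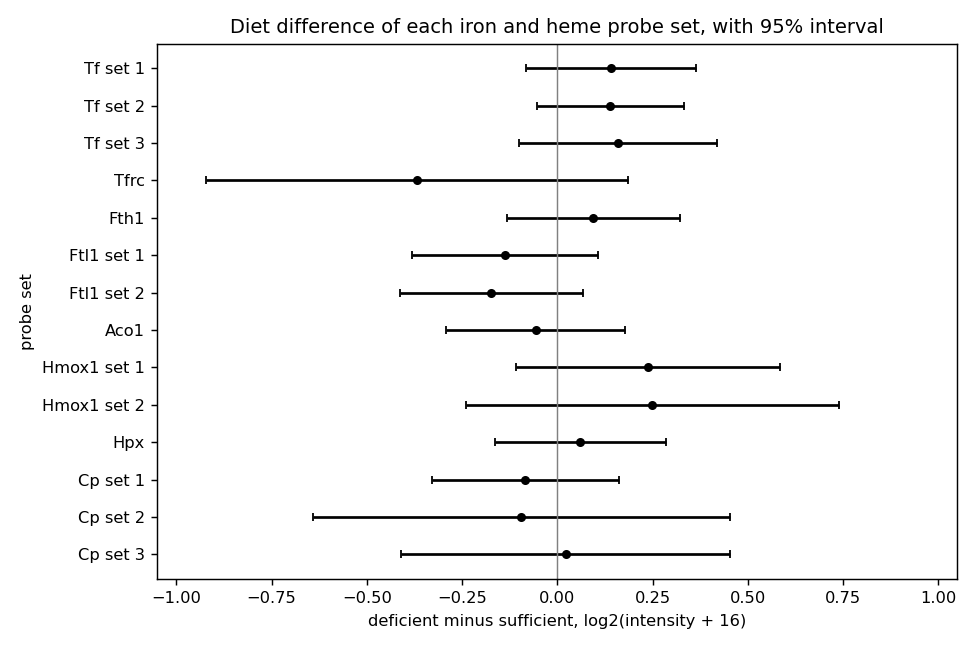
Difference of deficient minus sufficient livers for each probe set on the log2 scale, as points with 95% intervals from limma. All 14 intervals include 0. The interval of Tf set 2 is the narrowest and those of Tfrc and of Cp set 2 are the widest.

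Hmox1 was highest in deficient liver 3 by both of its probe sets. Set 1 read 9.88, 9.73, 10.36 and 10.09 in deficient livers and 9.54, 9.89, 9.69 and 9.98 in sufficient livers. Set 2 read 8.49, 7.93, 9.05 and 8.17 in deficient livers and 7.98, 8.30, 7.95 and 8.41 in sufficient livers. Only deficient livers 3 and 4 exceeded every sufficient liver by set 1, and only deficient livers 1 and 3 by set 2. The differences were 0.24 (SE 0.16, 95% interval -0.11 to 0.59, adjusted p = 0.568) and 0.25 (SE 0.22, -0.24 to 0.74, adjusted p = 0.693) in limma. Without deficient liver 3 they were 0.12 and 0.04. The 2 RNA amounts gave unlike values: set 1 differed between diets by 0.06 on the 2 µg arrays, which do not include liver 3, and by 0.27 on the 10 µg arrays, and set 2 by -0.01 and 0.24. The test of diet by amount, which took the 14 arrays as separate samples, did not pass for either (limma adjusted p = 0.9995).

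Macrophages make much of the heme oxygenase of liver, so their markers were read beside it. The summed intensity of the 10 Kupffer cell and macrophage markers on the array was 12080, 12985, 17724 and 14133 in deficient livers, against 9862, 10458, 9201 and 10894 in sufficient livers, so the groups did not overlap and deficient liver 3 was highest. Of the 8 markers tested, all 8 differences were positive and 1, Lgals3, a galectin, passed (0.77, SE 0.17, limma adjusted p = 0.0492), though it did not pass when arrays were scaled to equal medians or quantile normalized. Csf1r and Clec10a were too dim to be tested. Csf1r averaged 5.73 in deficient livers and 5.98 in sufficient livers and overlapped. Clec10a averaged 5.985 in deficient livers and 4.626 in sufficient livers and did not overlap. Cd163, Cd68 and Marco were not analysed here. The part of these cells in the Hmox1 values was not tested.

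**Figure D3:**
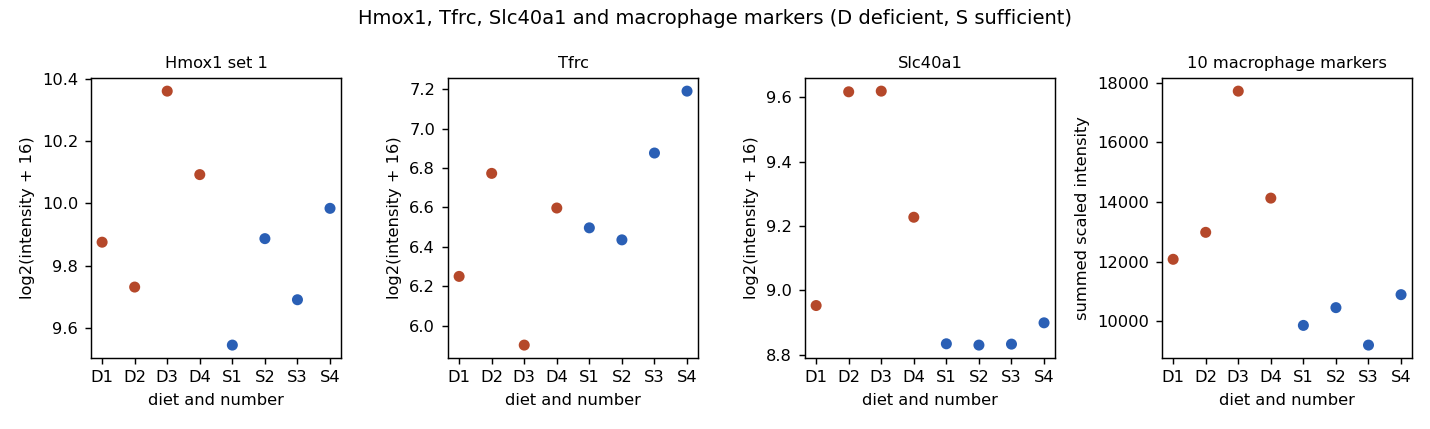
Values by liver, with deficient livers 1 to 4 (D1 to D4) left of sufficient livers 1 to 4 (S1 to S4), for Hmox1 set 1, Tfrc and Slc40a1 as log2(intensity + 16) and for 10 macrophage markers as summed scaled intensity. Deficient liver 3 is the highest for Hmox1 and for the markers and the lowest for Tfrc. The diets separate for Slc40a1 and for the markers, not for Hmox1 or Tfrc.

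Hemopexin, the heme carrier, read 15.23, 15.22, 15.25 and 15.18 in deficient livers, against 15.10, 15.30, 14.89 and 15.35 in sufficient livers. The deficient livers, with an SD of 0.03, lay within the range of the sufficient ones, whose SD was 0.21. The Hpx difference was 0.06 (SE 0.10, 95% interval -0.16 to 0.28, adjusted p = 0.873 in limma). It was -0.03 without sufficient liver 3, -0.01 when arrays were scaled to equal medians and -0.04 with quantile normalization.

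Ceruloplasmin gave no common direction by its 3 probe sets. Cp set 1 read 13.79, 13.60, 13.78 and 13.45 in deficient livers and 13.80, 13.93, 13.58 and 13.65 in sufficient livers, a difference of -0.08 (SE 0.11, 95% interval -0.33 to 0.16, limma adjusted p = 0.820). Set 2 read 11.63, 11.85, 11.30 and 10.73 in deficient livers and 12.00, 11.17, 11.14 and 11.58 in sufficient livers, so that the highest value was sufficient liver 1 and the lowest deficient liver 4. Its difference was -0.09 (SE 0.25, adjusted p = 0.922 in limma), and it was 0.12 without deficient liver 4 and 0.08 without sufficient liver 1. Set 3 read 8.07, 7.95, 7.27 and 7.60 in deficient livers and 7.91, 7.87, 7.39 and 7.63 in sufficient livers, with liver 3 the lowest of each diet. It gave 0.02 (SE 0.20, adjusted p = 0.981), and -0.04 and -0.02 under median scaling and quantile normalization. The 3 Cp probe sets followed each other less closely than those of Tf, with Pearson's r of 0.342 to 0.554 over the 8 livers. That difference was not tested, and the 3 Cp probe sets are named for different source sequences, unlike Tf sets 1 and 2.

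The amount of RNA did not separate the members. The comparison of 10 µg with 2 µg took the 14 arrays as separate samples. In it 0 of 14 member probe sets and 0% of all 5244 probe sets passed in limma, and 0 of 14 had an unadjusted p under 0.05. Member differences between amounts ran from -0.12 for Tf set 1 to 0.21 for Hmox1 set 2. With diet and number as a block, 0 of 14 passed, at differences of -0.07 to 0.23. In the test of whether the diet difference depended on the amount, 0 of 14 member probe sets and 0% of all probe sets passed in limma, 0 of 14 had an unadjusted p under 0.05, and member values ran from -0.25 for Cp set 2 to 0.29 for Cp set 3.

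**Figure D4:**
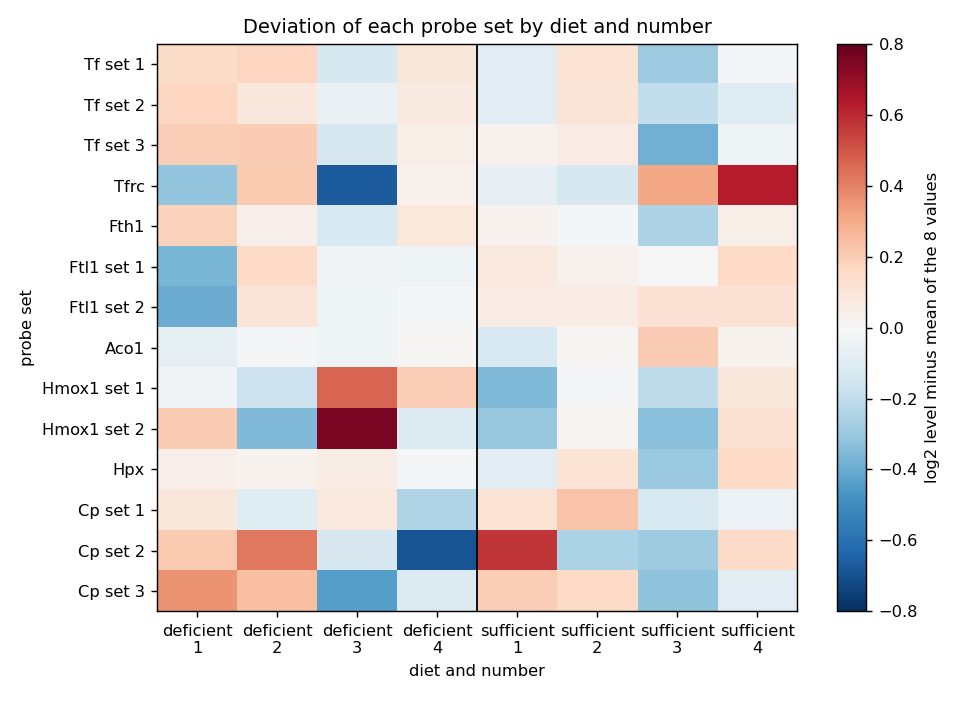
Level of each probe set in each liver minus its mean over the 8 livers, on the log2 scale, with deficient livers left of the line and sufficient livers right of it. Tf, Fth1 and Hpx are lowest in sufficient liver 3, Hmox1 is highest in deficient liver 3, and both Ftl1 probe sets are lowest in deficient liver 1.

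Several members were high or low in the same livers. Sufficient liver 3 had the lowest value of 5 probe sets, all 3 of Tf and those of Fth1 and Hpx, and the highest value of Aco1 and of Ftl1 set 2. Tf set 3 and Fth1 correlated at 0.896 over the 8 livers and Tf set 3 and Aco1 at -0.749, as descriptions over livers that share the scaling of each array. The genes whose 8 values were most like Tf set 1 were Apoe, an apolipoprotein (r = 0.952), Hp, the hemoglobin carrier haptoglobin (r = 0.945), and Alb, albumin (r = 0.944), out of 3130 candidate genes. For Hpx they were Dnajb5 (0.972), Pzp (0.940) and Nxt1 (0.937), and for Hmox1 set 1 Mapkapk2 (0.931), Rnh1 (0.930) and Aspg (0.919). For Tfrc they were Rpl3 (0.928), Man2a1 (0.908) and AKR1C3l1 (0.859), and for Fth1 Chchd1 (0.966), Dcaf6 (0.939) and Cox5a (0.931). For Ftl1 set 1 they were Oprm1 (0.874), Tmed10 (0.866) and Zc3hc1 (0.860), for Aco1 Rps9 (0.927), Slc8a1 (0.922) and Atp5pf (0.899), and for Cp set 1 Pdzd11 (0.870), Egr4 (0.865) and Ulk2 (0.861). With 8 values and 3130 candidates these correlations name patterns only.

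Other genes of iron uptake, export and regulation did not pass either. Of 30 genes on that list, 11 had a probe set annotated to them alone, 10 were tested and 0 passed. Of the differences 7 were positive (6 under median scaling) and 3 negative, with a median of 0.14, against 0.04 over all probe sets tested. Of the 10, 3 had an unadjusted p under 0.05: Slc40a1, Ncoa4 and Lcn2. Slc40a1, which encodes ferroportin, the iron exporter, read 8.95, 9.62, 9.62 and 9.23 in deficient livers, against 8.83, 8.83, 8.83 and 8.90 in sufficient livers. The diets did not overlap, with deficient liver 1 close to the sufficient ones, and the difference was 0.50 (SE 0.16, adjusted p = 0.160 in limma). Without deficient liver 1 it was 0.64 (adjusted p = 0.0495), the 1 of 18 alternative fits in which it was called. Ncoa4, which delivers ferritin to lysosomes, gave 0.39 (SE 0.16, adjusted p = 0.289), and Lcn2, lipocalin 2, which binds bacterial iron carriers, gave 0.86 (SE 0.38, adjusted p = 0.331). Macrophages express ferroportin, and their markers are given beside Hmox1. Hamp, Tfr2 and Hjv were not analysed here.

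Of 12 partners in heme breakdown and scavenging, 7 were tested and 0 passed, with 6 differences positive and a median of 0.15. Their median was 0.08 under median scaling and 0.03 under quantile normalization, with 5 positive in each. Alb gave 0.19 (SE 0.09, adjusted p = 0.382 in limma), Ambp, the precursor of the heme-binding alpha-1-microglobulin, 0.17 (SE 0.08, adjusted p = 0.384) and Hp 0.15 (SE 0.10, adjusted p = 0.577). Hmox2, the constitutive heme oxygenase, gave 0.07 (SE 0.23) and Blvra, the biliverdin reductase that follows it, -0.15 (SE 0.20), both without passing. Each of 19 tested genes on an acute phase list had a positive difference, with a median of 0.16, and 0 passed. Over all probe sets tested, 3063 of 5244 differences were positive. The list median was 0.09 under median scaling, where 16 were positive, and 0.06 under quantile normalization, where 15 were. Alb, Rbp4 (0.13), Ttr (0.03) and Ahsg (0.02) are on this list, and an acute phase response was not tested. That list shares Hp, Alb and Ambp with the partners of heme breakdown. Its smallest p were those of Itih3 (0.30, SE 0.13, adjusted p = 0.309), Itih4 (0.28, SE 0.12, adjusted p = 0.335) and Fga (0.23, SE 0.11, adjusted p = 0.340). Without sufficient liver 3, a single array, Itih3, Itih4 and Fga gave 0.16, 0.16 and 0.15. Hp, Alb and Ambp then gave 0.06, 0.12 and 0.13. Each of the 8 hepatocyte markers was well over the filter, so the tissue label held, and 0 of them passed.

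In heme synthesis 1 of 5 tested genes fell, Alas2, the first enzyme of heme synthesis in erythroid cells, from 1 probe set. It read 7.14, 7.69, 7.88 and 7.67 in deficient livers, against 8.75, 9.11, 8.81 and 8.64 in sufficient livers, and the diets did not overlap. The difference was -1.23 (SE 0.17, adjusted p = 0.00370 in limma), and it passed in each of 18 alternative fits. Of 6 probe sets that named a globin, alone or with other genes, 4 fell, and 2 did not pass: one of the Hbb family (-0.59, limma adjusted p = 0.105) and one that also named genes other than globins (-0.88, adjusted p = 0.588). Its counterpart outside erythroid cells, Alas1, gave -1.01 (SE 0.36, adjusted p = 0.225) with overlapping diets, Alad -0.14 (SE 0.11, adjusted p = 0.637), Urod 0.06 and Ppox 0.06. Under median scaling all 5 differences were negative.

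The transcription factor Nrf2 drives Hmox1 under oxidative stress, and its other targets were read beside it. Of 13 tested targets 0 passed, with 4 differences positive, 9 negative and a median of -0.15, and with 2 positive and 11 negative under median scaling. The differences with the smallest p were negative: Ephx1, an epoxide hydrolase, gave -0.51 (SE 0.11, adjusted p = 0.0514 in limma), Akr7a3, an aldehyde reductase, -1.06 (SE 0.24, adjusted p = 0.0514), and Me1, the malic enzyme, -0.84 (SE 0.25, adjusted p = 0.147). When arrays were scaled to equal medians, Ephx1 and Akr7a3 passed, at -0.58 and -1.12. Nqo1, a quinone reductase, gave 0.29 (SE 0.16, limma adjusted p = 0.469) and Txnrd1, the thioredoxin reductase, 0.05. Gclm, a subunit of the enzyme of glutathione synthesis, gave -0.06, and its other subunit Gclc -0.45 (SE 0.21, adjusted p = 0.356 in limma). Prdx1 gave -0.26 (SE 0.10, adjusted p = 0.292 in limma). The activity of Nrf2 was not tested.

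**Figure D5:**
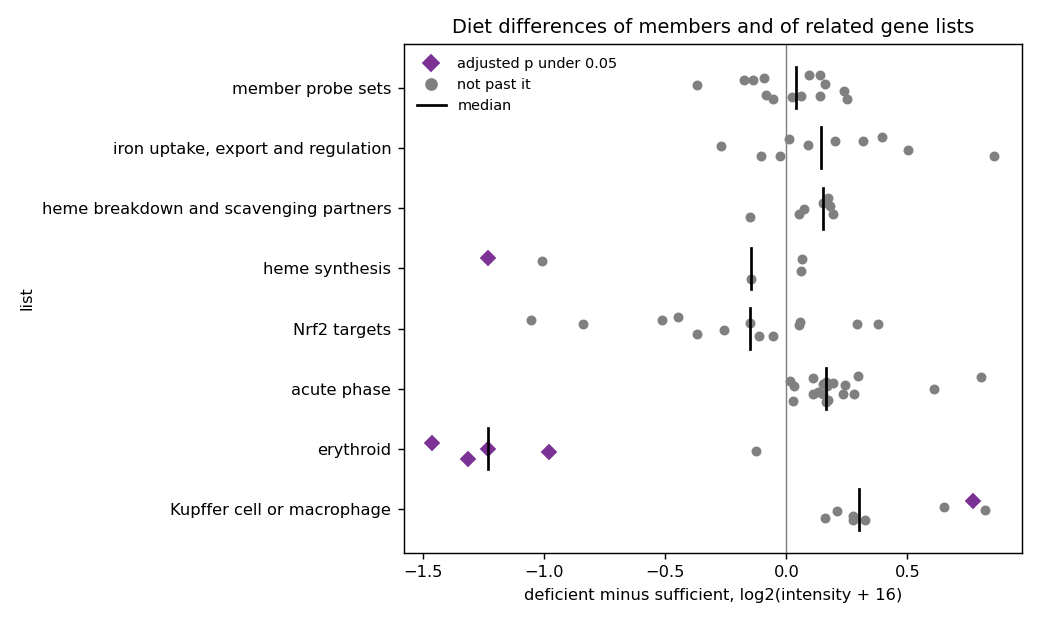
Difference of deficient minus sufficient livers on the log2 scale for the 14 member probe sets and for the tested genes of 7 lists. Diamonds passed an adjusted p of 0.05, circles did not, and black lines are medians. The members lie between -0.37 and 0.25, and the genes that passed are Alas2, which is in 2 lists, 3 globins and Lgals3.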

How the data were processed

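Liver RNA of 14 samples was measured on single-channel Affymetrix rat arrays. The deposited file lists intensities by probe set and array, and per the labels, targets were made by the maker's usual procedure. The program behind the intensities is not given in the sources used here. The deposited intensities had a trimmed mean of 1001.9 to 1002.1 on every array, with 2% taken off each end, and a median of 175.1 to 230.9. The number of arrays limits the precision.

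After 59 controls were left out, arrays were scaled to a trimmed mean of 500 and log2 taken after adding 16, which understates changes of dim genes. Probe sets with a mean under the 40th percentile (6.20) were dropped, leaving 5244. The shift between RNA amounts, over 6 pairs, was removed and arrays of a diet and number were averaged. Of 7006 probe sets with 1 symbol, 6985 matched the RefSeq table of GRCr8, 308 had several symbols and 1426 none.

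Fits used limma 3.58.1 (R 4.3.3), lmFit and eBayes with a trend, two-sided, with Benjamini-Hochberg adjustment and a threshold of 0.05. The fit was tested on simulated data, in which it recovered 27.6% of changes of 0.5, 75.3% of changes of 1 and 97.1% of changes of 2. Of 147 calls there, 9 were false. Deviations from group means correlated at 0.20 to 0.35 in the 6 pairs of 1 diet and number, and at -0.25 to 0.12 between numbers. No 2 arrays were identical. The number across diets, at -0.08 to 0.07, did not pair livers.

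The members, gene lists and alternatives were chosen with earlier results of these data known. Named genes were all members, from each pathway list those that passed and the 3 with the smallest p, the 3 genes most like each member, and the globins. Others, such as Ireb2, Hmox2, Blvra, Urod, Ppox, Nqo1, Gclm, Gclc, Prdx1, Txnrd1, Ttr, Rbp4, Ahsg and the cell type markers, were named after their values were seen. A gene on a list was read by its brightest probe set with 1 symbol.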

Additional observations from a re-analysis of the deposited data

Results flagged for a closer look

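Among 58 groups of 4 livers (2 diets for each member probe set and each named list gene), 2 had 1 liver apart from the other 3 by Dixon's test, and chance gives about 1 in 20. Neither was a member. Slc40a1 read 8.90 in sufficient liver 4, against 8.83 in the nearest of the others, within a range of 0.07 that is small beside the diet difference. Ephx1 read 13.23 in sufficient liver 3, against 12.88 in the nearest.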

How the results depend on the processing

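Over 251 alternative fits of single member probe sets by diet, 0 were called, and 8 of the 14 probe sets kept their sign in all of theirs. Tfrc could not be fitted under the 60th percentile filter, which it did not pass. The count of all probe sets called by diet was 90, and it was 33 in the 2 µg arrays alone, 250 with 14 separate arrays and each liver as a random block, and 49 to 97 when 1 liver was left out (49 without deficient liver 4, 58 without sufficient liver 3). The count of members called was 0 in each of these. With the replicate block across diets 77 probe sets passed and 0 members. By RNA amount 0 probe sets passed, and 2 did with the replicate block of diet and number. Scaling arrays to equal medians moved the median difference of all probe sets from 0.04 to -0.02. Of 269 alternative fits of named list genes, 13 newly passed: 7 of Akr7a3, 4 of Ephx1, 1 of Alas1 (-1.35, adjusted p = 0.0480 in limma, without sufficient liver 1) and 1 of Slc40a1. The other 256 kept their side of the threshold. With 4 livers a diet, the 95% intervals of Tfrc and Hmox1 set 2 still hold folds of 0.527 and 1.67, and signal near the filter limits Tfrc further.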

Other observations

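Other cell type markers were read beside the members. Of 4 tested endothelial markers 1 fell, Lyve1, a hyaluronan receptor of sinusoidal endothelium (-1.04, SE 0.16, limma adjusted p = 0.00710). The other 3 did not pass, Icam1 at 0.28, Pecam1 at 0.22 and Kdr at -0.02, and the list's median was 0.10. The summed intensity of the 5 with a probe set annotated to them alone was 844 to 981 in deficient livers and 862 to 1142 in sufficient livers. Of 7 tested stellate cell markers 1 rose, Vim, an intermediate filament protein (0.80, SE 0.16, adjusted p = 0.0343 in limma), although it did not pass when arrays were scaled to equal medians, and the list held 3 positive and 4 negative differences with a median of -0.08. Col1a1, a collagen chain, gave -0.85 (SE 0.24, adjusted p = 0.120 in limma) with diets that did not overlap, and Col1a2 gave -0.31 (SE 0.16, adjusted p = 0.451). Of 4 tested bile duct markers 0 passed, and all 4 differences were positive with a median of 0.41. Of these, 3 had an unadjusted p under 0.05 in limma, Krt18, Epcam and Spp1. Krt19, the remaining marker, gave 0.18 (SE 0.25) with overlapping diets. Which cells the Krt18 signal came from was not tested.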
